A study of Arabidopsis halleri with 24 samples.

Results

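This comparison sets the roots of the non-accumulating bulk against its rosette leaves. Its members are the 12 arrays of that bulk, 6 of roots and 6 of leaves, out of 24 arrays in the series, and the members were chosen by bulk and organ alone. Each organ had 3 arrays from plants on high-zinc medium, given in the treatment labels as 25 µM, and 3 arrays from plants on control medium, whose zinc level was not given. All plants shared growth room conditions with 10 h of light, weekly watering and full mineral medium. The recorded growth temperature was 25, humidity 80 and developmental stage 1.1 for every array. All arrays were recorded as Arabidopsis halleri RNA on the ATH1 array, an Arabidopsis thaliana design. The tissues were whole root systems and rosette leaves. From knowledge of the study, a bulk is material pooled over segregating progeny of A. halleri crossed to A. petraea, a species that does not accumulate zinc, which the titles do not state. The labels do not say that replicates came from separate plants or pools, so a p-value here reflects array-to-array spread, which may be technical. One root array, replicate 1 of the control medium, has the source name halleri in place of a bulk name.

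Leaves are the photosynthetic organ: in their chloroplasts, antenna proteins pass light energy to photosystems II and I, electrons flow between these through cytochrome b6f, and ATP synthase and the Calvin cycle use the products to fix carbon. The core subunits of these complexes are split between the plastid's own genome and the nucleus. Roots hold non-green plastids, take up water and minerals through root hairs, extend through wall loosening, and are known in Brassicaceae for ER bodies filled with beta-glucosidase and for coumarins released under iron shortage.

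Signals are linear MAS5 intensities, and changes are root minus leaf on log2(signal + 16), with the 2 zinc levels weighted equally. Called means an adjusted p below 0.05 in limma, with Benjamini-Hochberg adjustment over all 22746 probe sets. Array signals have no counting depth, so the number of arrays limits the precision. Signals of different probe sets cannot be set against each other, and in these bulk samples fewer cells of a type and less RNA per cell cannot be told apart. Pearson correlations of log2 signals were 0.935 to 0.961 within root groups, 0.893 to 0.959 within leaf groups and 0.660 to 0.790 between root and leaf arrays. Both leaf arrays of replicate number 3 stood apart from the other leaf arrays on the first component of the leaf deviations, which held 47.4% of their variance. As a sign of RNA integrity, log2 3'/5' ratios of the GAPDH control probe sets were 1.39 to 1.73 for root arrays and 1.19 to 1.55 for leaf arrays. The actin ratios were 1.24 to 1.84 for root arrays and 1.31 to 1.57 for leaf arrays.

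Roots and leaves differed over a large share of the array. Of 22746 probe sets, 4898 were called higher in roots (21.5% of those tested) and 3302 lower (14.5%). At least 2-fold, 1975 were higher (8.68%) and 1748 lower (7.68%). The median change over all probe sets was 0.05. The balance of higher and lower depended on scaling: with median centring 4221 were called higher and 3786 lower, and at least 2-fold 1780 higher and 1863 lower, so the order turned; with 64 added, 926 were at least 2-fold higher and 1103 lower. At the far end of the scale 8 probe sets were past 5 and 72 past -5, and 43 were past 4 and 149 past -4. On 2746 probe sets (12.1%) every root array lay above every leaf array, and on 1958 (8.61%) every root array lay below. Without the 2 leaf arrays of replicate number 3, 8793 probe sets were called in place of 8200, and without the root array named halleri 7197.

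**Figure D1:**
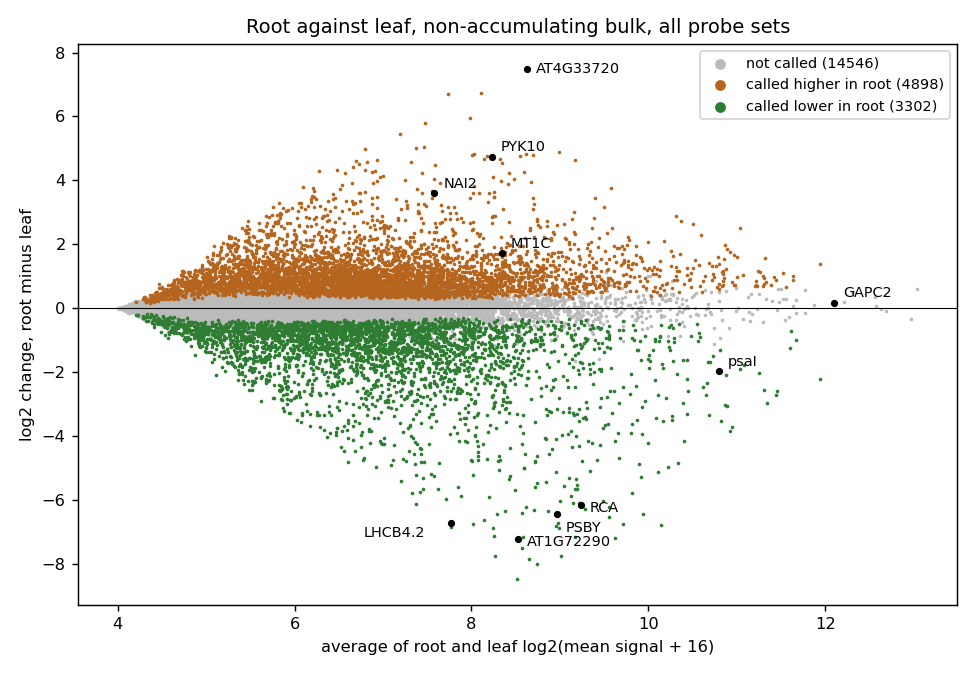
Each point is 1 of 22746 probe sets; the horizontal axis is the average of the root and leaf log2(mean signal + 16), the vertical axis the log2 change, root minus leaf, of the non-accumulating bulk. Brown points (4898) were called higher and green points (3302) lower in roots; the green points reach further from 0 than the brown ones, and AT4G33720 at 7.47 is the highest point.

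Nuclear photosynthesis genes were far lower in roots, and 8 of the 10 named genes with the largest decreases came from them. All 3 named antenna probe sets, all 5 named photosystem and ATP synthase probe sets and all 3 named Calvin cycle probe sets were called lower. Their median changes were -6.61, -6.09 and -4.61, and 14.5% were called lower over all probe sets. The lists hold 18, 31 and 19 genes, most of them without a named probe set. LHCB4.2, a minor antenna protein of photosystem II, had signals of 2.1 to 4.42 on the root arrays (median 3.46), against 668 to 3914 on the leaf arrays (median 2956), a change of -6.71 (SE 0.30, adjusted p = 7.2e-09). Its relative LHCB4.1 had 2.23 to 38.8 on the root arrays (median 7.68), against 1706 to 3510.1 on the leaf arrays (median 3011), a change of -6.61 (SE 0.27, adjusted p = 3.3e-09). The third relative, LHCB4.3, had 58.8 to 105 on the root arrays (median 85.6), against 228 to 1231 on the leaf arrays (median 551), a change of -2.39 (SE 0.22, adjusted p = 3.7e-06). LHCB4.2 and LHCB4.1 were chosen among probe sets with no overlap between organs, and the arrays of LHCB4.3 did not overlap either. The summed signal of these 3 LHCB4 probe sets was 72.4 to 128 on root arrays and 2603 to 8634 on leaf arrays. Other antenna genes of the list had no named probe set.

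PSBY, a small photosystem II protein, had 19.9 to 62.4 on the root arrays (median 38.5), against 2610.3 to 5878 on the leaf arrays (median 4928), a change of -6.44 (SE 0.18, adjusted p = 3.2e-10). PSAN, a lumenal photosystem I subunit, had 12.5 to 71 on the root arrays (median 29.3), against 2364 to 5622 on the leaf arrays (median 4684), a change of -6.33 (SE 0.24, adjusted p = 2.1e-09). The ATP synthase gamma subunit ATPC1 had 28.7 to 129.6 on the root arrays (median 45.8), against 3633 to 5259 on the leaf arrays (median 4849.9), a change of -6.09 (SE 0.20, adjusted p = 7.5e-10). PSBY, PSAN and ATPC1 were chosen among probe sets with no overlap between organs, so their separate ranges were fixed by that choice. RCA, the activase that frees Rubisco of inhibitors, had 17.1 to 109 on the root arrays (median 51.5), against 3269 to 6608 on the leaf arrays (median 5321), a change of -6.14 (SE 0.29, adjusted p = 9.9e-09). The Calvin cycle enzymes PRK, which makes ribulose bisphosphate, and SBPASE, a bisphosphatase that feeds regeneration, changed by -4.61 (SE 0.44, adjusted p = 5e-06) and -4.23 (SE 0.31, adjusted p = 4.5e-07). The size of a change depends on the constant added where the root signal is near the bottom of the scale: for LHCB4.2 it was -8.89 with 1 added and -4.95 with 64 added, and for RCA, whose root signal is higher, -6.55 and -5.36.

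**Figure D2:**
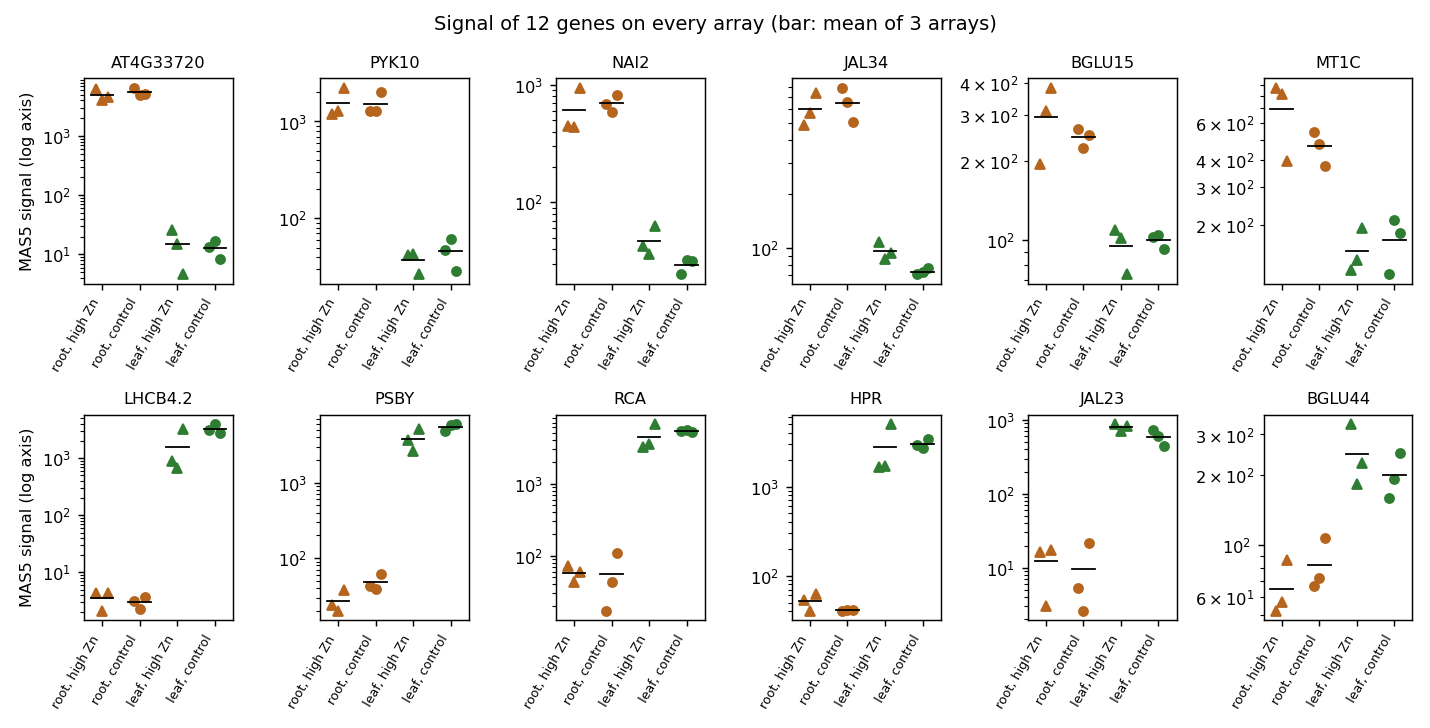
MAS5 signal (log axis) on each of the 12 arrays for 6 genes higher in roots (top) and 6 lower in roots (bottom); brown points are roots, green points leaves, triangles high zinc, circles control medium, and bars the mean of 3 arrays. In all 12 genes the root arrays and the leaf arrays occupy separate ranges at both zinc levels. AT4G33720, PYK10, LHCB4.2, PSBY and RCA were chosen among probe sets with no such overlap.

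In pathways around carbon fixation most named probe sets were called lower, beside 14.5% called lower over all probe sets. HPR, the peroxisomal hydroxypyruvate reductase of photorespiration, had 40.1 to 62.5 on the root arrays (median 41.4), against 1670.0 to 5001 on the leaf arrays (median 2809), a change of -5.46 (SE 0.24, adjusted p = 6.2e-09). Of the 3 named photorespiration probe sets 2 were called lower, and AT1G80380, entered by locus number, had 1.37 (95% interval 0.19 to 2.54) and was not called. One member of this list was called higher without either or both leaf arrays of replicate number 3, and with a filter on low signals, a replicate block or array weights. In chlorophyll synthesis 4 of 5 named probe sets were called lower. PORB, which reduces protochlorophyllide in light, changed by -4.31 (SE 0.27, adjusted p = 1.5e-07), and the methyltransferase CHLM by -2.34 (SE 0.15, adjusted p = 1.5e-07). HEMB1, at a step that heme shares, changed by -0.68 (SE 0.13, adjusted p = 0.0014), and GSA1, at the entry to the pathway, had -0.09 with an interval of -0.47 to 0.29 and was not called. The wider tetrapyrrole list had 7 of 12 probe sets called lower, 1 higher and 4 not called, with a median of -0.62. The chlorophyll b reductase NOL, chosen after its values were seen, changed by -2.27 (SE 0.17, adjusted p = 5.8e-07). The assembly and cyclic flow genes of the nucleus had 15 of 19 probe sets called lower and none higher, with a median of -2.01, among them the photosystem II assembly factors PSB27 at -4.74 and PAM68 at -4.25, TROL, a thylakoid anchor of ferredoxin-NADP reductase, at -3.80 and HCF101, an iron-sulfur carrier for photosystem I, at -3.07.

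Signals of plastid genome probe sets were lower in roots almost throughout, whereas over all probe sets 14.5% were called lower. Of 69 probe sets, 66 were called lower, 65 of them at least 2-fold, none was called higher, and the median change was -2.60 beside 0.05 over all probe sets. The exceptions were ndhF at -0.54, rpl14 at -0.97 and rps14 at -0.08. The summed signal of the 69 was 17275 to 31107 on root arrays and 139703 to 173540 on leaf arrays.

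Median decreases ranged over the plastid complexes. Photosystem II had a median of -3.89 over 15 probe sets, photosystem I -3.54 over 5, ATP synthase -3.42 over 6, cytochrome b6f -2.63 over 6 and the NDH complex, which takes part in cyclic flow, -2.52 over 10. Genes of the plastid's own gene expression changed least, with -1.64 over 15 ribosomal proteins and -1.58 over 4 RNA polymerase subunits. These medians are descriptions, and differences between complexes were not tested. psaA, a reaction centre protein of photosystem I, had 31.5 to 145 on the root arrays (median 63.5), against 1926 to 4648 on the leaf arrays (median 4179), a change of -5.52 (SE 0.26, adjusted p = 1.2e-08). Its partner psaB had 200.1 to 1163 on the root arrays (median 442), against 6035 to 7369 on the leaf arrays (median 6991), a change of -3.84 (SE 0.29, adjusted p = 6e-07). psbA, the D1 protein of photosystem II, had 44.9 to 191 on the root arrays (median 59.6), against 920.4 to 2846 on the leaf arrays (median 2506), a change of -4.56 (SE 0.34, adjusted p = 6.3e-07). psaA was chosen among probe sets with no overlap between organs, and the root arrays of psaB and psbA also lay wholly below the leaf arrays. By contrast, rpoB, a polymerase subunit, had 115 to 229 on the root arrays (median 148), against 149 to 1271 on the leaf arrays (median 666), so the organs overlapped, with a change of -1.83 (SE 0.36, adjusted p = 0.0018).

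Of 23 mitochondrion-encoded probe sets 7 were called lower and none higher, beside 14.5% lower and 36.1% in either direction over all probe sets, and the median was -0.28. cox2, a subunit of cytochrome oxidase, changed by -1.60 (SE 0.25, adjusted p = 0.00036) and was the only one called at least 2-fold. The count moved with single arrays: it was 3 without the root array named halleri or without replicate 2 of the high-zinc leaves, 12 without replicate 3 of the high-zinc leaves, and 14 without both leaf arrays of replicate number 3. It was 4 when any 1 of control root replicate 2, high-zinc root replicates 1 and 2, control leaf replicates 1 and 2 or high-zinc leaf replicate 1 was left out.

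**Figure D3:**
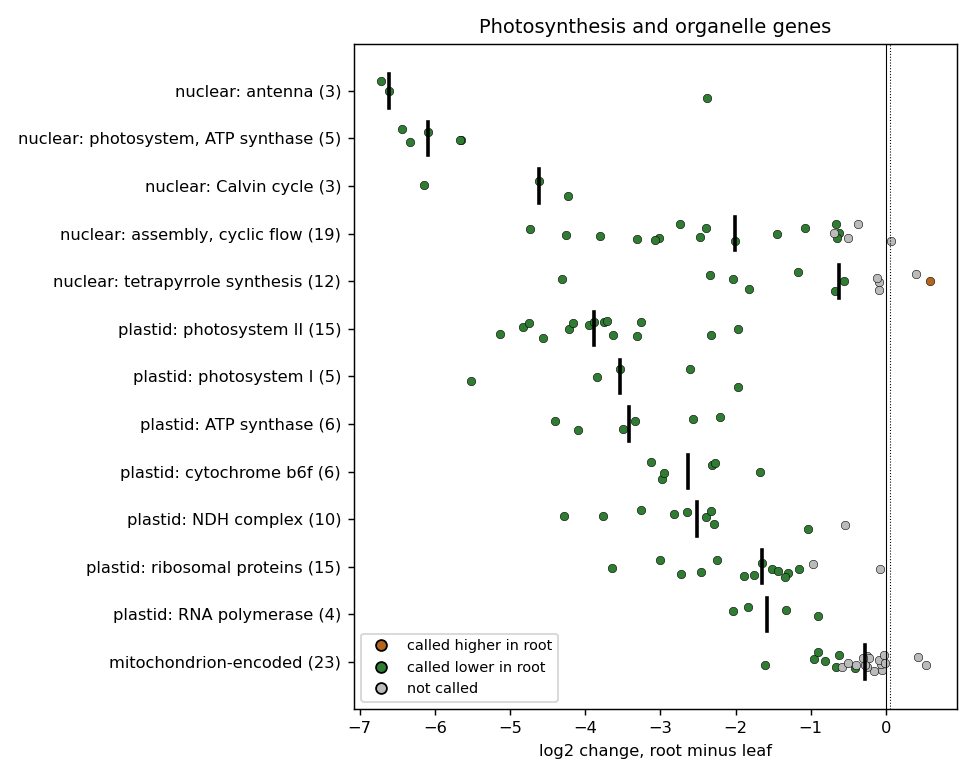
Log2 change, root minus leaf, of each probe set in the groups of photosynthesis and organelle genes, with the number of probe sets in brackets; the thick bar is the median of a group and the dotted line the median of all probe sets, 0.05. The nuclear antenna probe sets, all 3 of LHCB4 genes, lie at -6.71 to -2.39, and the mitochondrion-encoded genes at -1.60 to 0.53.

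Further genes lower in roots had various roles. AT1G72290, the named gene with the largest decrease, had 2.61 to 82.1 on the root arrays (median 5.05), against 2205 to 5509 on the leaf arrays (median 4383), a change of -7.23 (SE 0.37, adjusted p = 2.1e-08), and its highest root value came from 1 control array. STOMAGEN, a peptide that promotes stomata, had 2.5 to 5.26 on the root arrays (median 3.47), against 45.4 to 137 on the leaf arrays (median 94.5), a change of -2.41 (SE 0.18, adjusted p = 5.8e-07). YAB5 and YAB3, transcription factors of the lower leaf side, changed by -1.40 (SE 0.18, adjusted p = 6.4e-05) and -1.03 (SE 0.27, adjusted p = 0.01). YAB3 was the only 1 called of 2 leaf regulator probe sets, and the other had -0.28. SWEET11, a sucrose exporter of leaf phloem loading, had 95.5 to 186 on the root arrays (median 139), against 391 to 803 on the leaf arrays (median 522), a change of -1.90 (SE 0.21, adjusted p = 2.2e-05). APL3, a large subunit of the first committed enzyme of starch synthesis, changed by -1.83 (SE 0.18, adjusted p = 6.1e-06). Of 13 leaf shape and stomatal probe sets 4 were called lower and 1 higher, PHV, which specifies the upper leaf side, at 0.92; beside 36.1% called over all probe sets, this share is near that of all probe sets. Without the leaf arrays of replicate number 3, 7 were called lower. A defensin probe set, PDF1.2b, had 23.2 to 120.3 on the root arrays (median 45.8), against 3216 to 5376 on the leaf arrays (median 4734). Its change was -6.08 (SE 0.21, adjusted p = 1.2e-09), and it is of a type that can also read related transcripts. In the list of plant defensins and LCR peptides 3 of 14 probe sets were called higher and 2 lower, with a median of -0.03.

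Most of the largest increases among named genes were in genes that the probe table names by locus number only. AT4G33720 had 4063 to 6532 on the root arrays (median 5003), against 4.57 to 25.5 on the leaf arrays (median 14), a change of 7.47 (SE 0.18, adjusted p = 1e-10). AT3G13610 had 792 to 4247 on the root arrays (median 2026), against 2.17 to 3.8 on the leaf arrays (median 3.21), a change of 6.70 (SE 0.20, adjusted p = 5.9e-10). Both were near the bottom of the scale on every leaf array. AT5G05960, AT5G26130 and AT5G10580 had mean signals above the median of all values, 55.9, in both organs and changed by 4.90, 4.82 and 4.81. Some leaf arrays of each lay below that median, and no detection call was used. With 1 or 64 added in place of 16, the change of AT4G33720 was 8.60 or 6.07.

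Several genes of ER bodies were called higher in roots, in a list whose median was near 0. PYK10, the main beta-glucosidase of root ER bodies, had 1191 to 2228 on the root arrays (median 1283), against 26.5 to 61.9 on the leaf arrays (median 42.6), a change of 4.74 (SE 0.20, adjusted p = 4.9e-09). NAI2, a protein needed to form ER bodies, had 441 to 947 on the root arrays (median 641), against 24.4 to 63.1 on the leaf arrays (median 34.5), a change of 3.60 (SE 0.20, adjusted p = 3.7e-08). JAL34 and JAL33, lectins related to those that bind PYK10 complexes, changed by 2.66 (SE 0.14, adjusted p = 2.4e-08) and 1.51 (SE 0.18, adjusted p = 3.8e-05), whereas JAL23 of the same family changed by -4.75; of the 4 lectin probe sets 2 were called higher and 1 lower. PYK10 was chosen among probe sets with no overlap between organs, and the root arrays of NAI2, JAL34 and JAL33 also lay wholly above the leaf arrays. NAI1, the transcription factor of this system, changed by 0.67 (SE 0.20, adjusted p = 0.019) with overlapping organs, and was not called without the leaf arrays of replicate number 3 (adjusted p = 0.075). In the wider list of glucosinolates, myrosinases and ER bodies, 3 of 8 probe sets were called higher and 1 lower, the glucosinolate carrier GTR1 at -1.26 (SE 0.29, adjusted p = 0.0049), and the median was 0.08. Without both leaf arrays of replicate number 3 these counts were 2 and 2, and without the control leaf array of that number 2 were called lower. With a filter on low signals 2 were called higher. Over all probe sets 21.5% were called higher and 36.1% in either direction.

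All 4 named probe sets of the coumarin list, which holds 6 genes, were called higher, with a median of 2.56. Over all probe sets 21.5% were called higher. AT3G13610 belongs to it, as do AT1G28680 with 375 to 2671 on the root arrays (median 595), against 95.2 to 173 on the leaf arrays (median 136), a change of 2.46 (SE 0.28, adjusted p = 2.7e-05), and AT3G12900, both entered by locus number. The signals of AT3G12900 were 1700.1, 3127 and 745 on high-zinc roots and 227, 145 and 140 on control roots, against 66.7, 73.7 and 36.7 on high-zinc leaves and 96.3, 93.8 and 66.0 on control leaves. The high-zinc roots were the highest, and the control roots were nearest to the leaves. Its organ difference was 4.45 in high zinc and 0.86 in control medium, and the difference between them, 3.59 (SE 0.59), had an adjusted p of 0.32. The beta-glucosidase BGLU42, known from iron deficiency responses, changed by 0.74 (SE 0.18, adjusted p = 0.0056).

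Both named root hair probe sets, from a list of 11 genes, were called higher, beside 21.5% called higher over all probe sets. Among wall families, expansins and GH9 endoglucanases had called members in both directions. EXPA18, a root hair expansin, had 76.9 to 199 on the root arrays (median 146), against 9.35 to 47.1 on the leaf arrays (median 32.5), a change of 1.69 (SE 0.24, adjusted p = 0.00016). EXPA7, its partner in root hairs, had 40.8 to 179 on the root arrays (median 84.1), against 18.5 to 73.8 on the leaf arrays (median 35.4), a change of 1.00 (SE 0.22, adjusted p = 0.0034), with 1.89 in high zinc and 0.11 in control medium (difference adjusted p = 0.9). XTH26, a xyloglucan endotransglucosylase, had 68.2 to 306 on the root arrays (median 150.2), against 1.08 to 3.94 on the leaf arrays (median 2.96), a change of 3.13 (SE 0.22, adjusted p = 3.5e-07). The organs separated for EXPA18 and XTH26 and overlapped for EXPA7. GH9C1, an endoglucanase, and GSO1, a receptor of the Casparian strip barrier, changed by 1.33 (SE 0.21, adjusted p = 0.0004) and 1.00 (SE 0.20, adjusted p = 0.002). GH9B16, another endoglucanase, was called lower at -1.19. Of 15 GH9 probe sets 2 were called higher and 1 lower, and of 9 XTH probe sets 4 higher and 0 lower.

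Further genes higher in roots, chosen after their values were seen, were FACT, which makes alkyl caffeates of root waxes, at 2.78 (SE 0.16, adjusted p = 6.1e-08), the peroxidase Prx37 at 3.68 (SE 0.24, adjusted p = 1.7e-07), the peptide receptor PSY1R at 2.67 (SE 0.15, adjusted p = 3.9e-08) and the auxin-conjugating enzyme GH3.17 at 2.45 (SE 0.19, adjusted p = 7.4e-07). Of 6 root development probe sets 3 were called higher and none lower, among them JKD, a regulator of root tissue patterning, at 1.53 (SE 0.28, adjusted p = 0.00098). UPB1, which regulates the switch to differentiation in the root tip, changed by 1.23 (SE 0.16, adjusted p = 8.3e-05). It was the only 1 called of 3 root regulator probe sets, which ranged from -0.12 to 1.23 with a median of 0.14. With a filter on low signals 0 of that list were called higher. The sulfate-activating enzyme APS4 had 562 to 2084 on the root arrays (median 681), against 219 to 355 on the leaf arrays (median 258), a change of 1.63 (SE 0.27, adjusted p = 0.00053). All but 1 of the 4 probe sets of ATP-citrate lyase, which supplies cytosolic acetyl-CoA, were called higher, with ACLA-2 at 1.58. Of 12 nuclear RNA polymerase probe sets 4 were called higher and none lower, led by NRPA1 at 1.24, and of 7 exocyst probe sets, a complex that tethers secretory vesicles, 4 were higher and none lower, up to 0.80 for SEC15B. Over all probe sets 21.5% were called higher and 36.1% in either direction, and nothing particular is read from these small counts.

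Several families held members called in opposite directions. The jacalin-related lectin JAL23 had 2.59 to 21.3 on the root arrays (median 10.8), against 449 to 866 on the leaf arrays (median 714), a change of -4.75 (SE 0.21, adjusted p = 6.2e-09), the reverse of JAL34. Among 21 beta-glucosidase probe sets 4 were called higher and 2 lower, with BGLU15 at 1.32 (SE 0.16, adjusted p = 3.6e-05) and BGLU44 at -1.41 (SE 0.18, adjusted p = 7.2e-05); the lower count was 1 without the leaf arrays of replicate number 3 and 4 with array weights. The stromal ascorbate peroxidase SAPX, which removes hydrogen peroxide, had 140.3 to 394 on the root arrays (median 251), against 58.4 to 120.1 on the leaf arrays (median 92.2), a change of 1.34 (SE 0.22, adjusted p = 0.00043), whereas the thylakoid form TAPX had 8.95 to 56.2 on the root arrays (median 40.3), against 102 to 368 on the leaf arrays (median 282), a change of -2.36 (SE 0.32, adjusted p = 0.0001). Among expansins 6 of 18 were called higher and 2 lower, with EXPA8 at -2.98 (SE 0.24, adjusted p = 1e-06) against EXPA18. The sugar carriers of the SWEET family split likewise, with SWEET14 at 1.12 and SWEET11, SWEET1 and SWEET4 at -1.90, -1.54 and -1.29. Among all probe sets 21.5% were called higher and 14.5% lower, and nothing particular is read from these family counts.

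UDP-glycosyltransferases, which attach sugars to small molecules, had 9 of 48 probe sets called higher and 9 lower, with a median of 0.00; UGT76B1, which glycosylates isoleucic acid, changed by 2.76 (SE 0.49, adjusted p = 0.00077) and UGT88A1 by -2.75 (SE 0.15, adjusted p = 3.2e-08). With array weights 14 were called lower. Tau glutathione transferases had 5 of 11 called higher and 2 lower, with GSTU22 at 2.26 and GSTU16 at -1.53; 4 were called lower without replicate 3 of the high-zinc roots. Serine carboxypeptidase-like genes had 6 of 29 higher and 3 lower, with scpl31 at 2.92 and SCPL34 at -2.62. The TBL family, which acetylates wall polysaccharides, had 7 of 22 higher and 2 lower, with TBL36 at 1.79 and TBL26 at -2.92; 1 was called lower without any 1 of control root replicate 2, high-zinc root replicate 1 or either leaf array of replicate number 3, and 4 with all 24 arrays in 1 fit. AGL79, a MADS-box transcription factor, was higher on both its probe sets, at 2.86 and 1.72. These shares of called members lie beside 36.1% called in either direction over all probe sets.

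**Figure D4:**
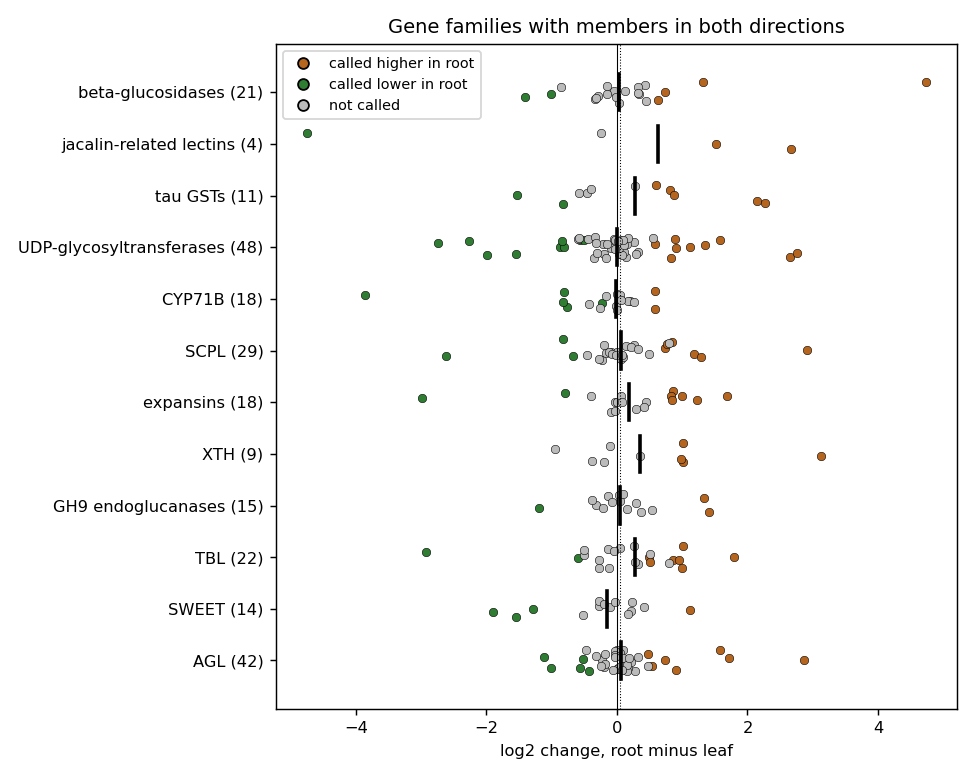
Log2 change, root minus leaf, of each probe set in 12 gene families, with the number of probe sets in brackets; brown points were called higher in roots, green points lower and grey points not called, and the thick bar is the median. Most medians lie near 0, and single members such as PYK10 at 4.74 and JAL23 at -4.75 lie far to either side.

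Metal homeostasis genes with a named probe set were few in number. MT1C, a metallothionein that binds copper and zinc, had 374 to 874 on the root arrays (median 511), against 117 to 209.5 on the leaf arrays (median 160.1), a change of 1.72 (SE 0.22, adjusted p = 5.6e-05). MTP11, a manganese carrier, was called lower at -0.85 (SE 0.24, adjusted p = 0.015) with overlapping organs. The zinc transporters ZIP9 and ZIP6 had 0.36 (95% interval 0.03 to 0.69) and 0.11 (-0.33 to 0.55), and neither was called. Among reference genes GAPC2, a cytosolic glycolysis enzyme, had 3588 to 5573 on the root arrays (median 4851), against 3478 to 4814 on the leaf arrays (median 4188), with a change of 0.17 and an interval of -0.35 to 0.69, and it was called higher with quantile normalization (0.75, adjusted p = 0.014). AT4G34270 changed by 0.41 (SE 0.12, adjusted p = 0.019) and was not called with median centring or without replicate 1 of the high-zinc roots. AT2G28390 had 0.62, was not called, and was called at 1.01 without the leaf arrays of replicate number 3 and at 0.93 without the high-zinc one alone. The 95% interval lay within a 1.5-fold change for 7580 probe sets, 2858 of them with both organ means above the median signal of 55.9.

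The organ difference was measured separately at each zinc level. In high zinc 4874 probe sets were called (21.4%) and in control medium 5341 (23.5%), and 3619 were called the same way at both, 74.3% of the high-zinc calls and 67.8% of the control calls. One probe set was called in opposite directions. The test of the difference between zinc levels called 0 of 22746 in limma, with 917 at an unadjusted p below 0.05 and a smallest adjusted p of 0.20; with array weights it called 2. Leaving out both leaf arrays of replicate number 3 gave 26, leaving out the high-zinc one alone gave 6, and leaving out replicate 3 of the control roots or of the high-zinc roots gave 1.

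The accumulating bulk, grown and sampled alike, gave another 12 arrays. There 9050 probe sets were called (39.8%) in a fit of all 24 arrays. That fit called 8515 for the non-accumulating bulk, beside 8200 in the fit of its 12 arrays alone. Of these 8200, 6940 were called the same way in the accumulating bulk, and 2 were called in opposite directions. The 6940 were 84.6% of the 8200 and 76.7% of the 9050, so these shares set calls of different fits side by side. Across probe sets, which share arrays and are not replicates, the 2 sets of changes had a Pearson r of 0.962. LHCB4.2 changed by -6.71 in the non-accumulating bulk, beside -6.81 in the accumulating one, PYK10 by 4.74 and 4.74, and AT4G33720 by 7.47 and 7.46. JAL33 had 1.51 and 0.21, and the difference between the bulks (SE 0.33) had an adjusted p of 1.00. ZIP9 had 0.36 and 1.15, and that difference also had an adjusted p of 1.00. The test of the difference between bulks called 1 probe set (0.0044%), with 694 at an unadjusted p below 0.05.

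**Figure D5:**
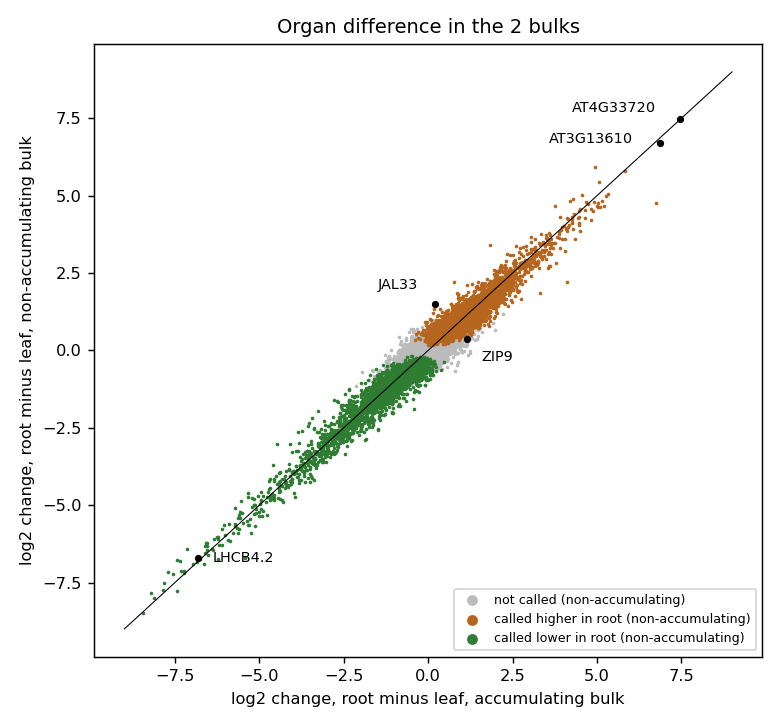
Log2 change, root minus leaf, in the non-accumulating bulk (vertical) against the accumulating bulk (horizontal) for all 22746 probe sets, coloured by the call in the non-accumulating bulk; the line marks equal change. Points follow the line (Pearson r 0.962), and JAL33 lies above it at 1.51 against 0.21.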

How the data were processed

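The 12 arrays were compared as linear MAS5 intensities deposited by the authors; MAS5 is named in the submitters' processing notes, without version or scaling target. The deposited signal of each array had a trimmed mean of 100.0 (2% cut at each end), and no further scaling was applied. After 64 control probe sets were left out, 22746 were tested with no filter on low signals. A platform annotation gave 1 gene symbol for 13513 probe sets, several for 503 and none for 8730; genes are named only from probe sets with 1 symbol.

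limma 3.58.1 in R 4.3.3 was fitted to log2(signal + 16) with a mean per group of 3 arrays and empirical Bayes moderation with a trend. Organ differences weighted the 2 zinc levels equally; the bulk comparison used all 24 arrays. The script was tested on simulated data. Alternatives were other added constants, a filter, quantile normalization, median centring, a replicate block, no trend, array weights, plain probe sets only, 1 fit of all arrays, each array left out, and the leaf arrays of replicate number 3 left out.

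The comparison, 27 gene lists and 40 symbol families were chosen with earlier results of these data known. Named genes were the 10 largest changes each way among probe sets called with no overlap between organs, and the leading members of each list. The same 10 each way were taken among those whose mean signal was above the median of all values in both organs. Others are said to be chosen after their values were seen, as were list members named although not called. Lists are described by counts, without a set test. Of the 27 lists, those for cuticle, mineral uptake, aquaporins, root-type plastid isoforms, auxin carriers, xylem, seed storage and guard cells had no named probe set and were not analysed here. Promoter sequences were not used here.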

Additional observations from a re-analysis of the deposited data

Results flagged for a closer look

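The organ difference of 1 probe set differed between the bulks by 0.718 on the log2 scale (SE 0.10, adjusted p = 0.016, limma), from 0.34 for the non-accumulating bulk and -0.38 for the accumulating one. It was the only probe set whose difference between bulks passed the threshold. The probe table gives it no gene. Its signals in the non-accumulating bulk were 0.632 to 10.3 on root arrays and 0.426 to 3.16 on leaf arrays, near the bottom of the scale.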

How the results depend on the processing

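The 8200 calls for root against leaf stayed within 1.5 times under every alternative run, from 7174 to 8533 when each array was left out. The count of at least 2-fold changes was 3723, and 2029 with 64 added to the signal; it was 3561 to 3995 when each array was left out. For control medium 5341 calls became 8153 with array weights, and leaving out each array gave 3836 to 5794; for high zinc the range was 3479 to 5406. The organ by zinc count of 0 became 2 with array weights, 26 without the leaf arrays of replicate number 3, and 0 to 6 when each array was left out. The organ by bulk count of 1 became 2 with array weights and 0 with a filter on low signals, median centring, a replicate block, no trend, plain probe sets only, or without the leaf arrays of replicate number 3; leaving out each array gave 0 to 2. The cause of these shifts was not tested. With the replicate number as a block the counts were 8055 for root against leaf, 3718 at least 2-fold, 5311 in control medium, 4769 in high zinc and 0 for organ by zinc. The labels do not say that a number marks a shared source, and not every same-numbered pair correlated over 0.1, so the numbers were not taken as pairs. Correlations of same-numbered deviations were -0.21 to 0.07 between leaf and root, but all positive within an organ, at 0.03 to 0.22 between leaf groups (2 of 3 over 0.1) and 0.08 to 0.34 between root groups (2 of 3 over 0.1). Each root array correlated best with its own number in the other root group, a hint from the data and not the design. Neither replicate 1 leaf array did. The high-zinc one had 0.03 with its own number and 0.07 with control leaf replicate 2. The control one had 0.03 with its own number and 0.12 with high-zinc leaf replicate 2. Of 238 named probe sets 0 reversed, 20 changed call when an array was left out and 18 under another alternative.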
